A study of Mus musculus with 32 samples.

Results

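The genes described here encode the proteins of the cytosolic ribosome. They were taken by symbol, as protein-coding genes starting with Rpl or Rps and a digit, plus Rplp0, Rplp1, Rplp2 and Rpsa, with the ribosomal S6 kinases (Rps6k) left out. Of 92 genes with such symbols, 85 had at least 10 reads in at least 16 of 32 liver libraries and were kept, out of 12466 genes that passed the same filter. They comprise 46 standard proteins of the large subunit, 31 of the small subunit, and 8 others: the paralogs Rpl22l1, Rpl7l1, Rpl36al and Rps27l, the retrogene-like copies Rps27rt, Rpl9-ps6 and Rpl10-ps3, and Rps19bp1, which has a matching symbol but is a binding protein and no part of the ribosome. The 7 genes under the filter were Rpl3l, with 0 to 77 reads and 10 or more in 2 libraries, and Rpl36a-ps1, Rpl9-ps1, Rpl10l, Rpl39l, Rpl36-ps4 and Rps12-ps3, none of which exceeded 6 reads in any library.

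Each ribosome holds a single copy of nearly every protein of its large and small subunits, so cells make these proteins in matched amounts. Their mRNAs are short, abundant and long-lived. Most begin with a run of pyrimidines directly at the 5′ end (the terminal oligopyrimidine, or TOP, motif), through which mTOR and the RNA-binding protein LARP1 adjust their translation to nutrients. In liver, the main source of plasma proteins, ribosome content follows feeding and fasting.

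Liver RNA-seq was available from 8 groups of 4 mice each, all on the C57BL/6J background: wild-type (WT) and Nudt7-/- (KO) males (WTM, KOM) and females (WTF, KOF), on a control diet (CD) or a Western diet (WD). Nudt7 encodes the main peroxisomal coenzyme A-degrading enzyme of liver. The knockout was whole-body, made by CRISPR-Cas9 deletion in FVB zygotes; all KO mice descend from 1 mosaic founder, backcrossed to C57BL/6J, and WT mice were littermates. Diets were started at 6 weeks of age and livers taken at 17 to 20 weeks; the WD held 41% of energy as fat and 0.2% cholesterol, the CD 10% of energy as fat and 0% cholesterol. Sample labels do not give the feeding state of single mice. The comparisons ask how diet, genotype and sex change liver gene expression.

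Library depth ran from 10140048 to 15825078 assigned reads. In each sex and diet, every KO library had less Nudt7 than any WT library, and the summed level of 12 hepatocyte markers was high in all libraries (72500 to 132300 CPM). Transcripts of pancreatic acinar cells stood apart in 4 female libraries (WTF-CD 2 and 4, KOF-CD 3 and WTF-WD 4), and counts that move without them are given beside the results. Within groups, libraries correlated at a Spearman rho of 0.962 to 0.992 across genes, and no pair was a duplicate. In bulk tissue, fewer cells of a type and less RNA per cell cannot be told apart.

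To show what these genes share in sequence, 30 bases around the RefSeq transcription start (15 on each side, GRCm38.p6) were read for the 63 members with an entry. Capitals mark the longest run of at least 7 bases that are each C or T, on the sense strand (which reads like the RNA). The P stalk gene Rplp2 (chr7:141447636-141447665, plus strand), Rps6 (chr4:86857353-86857382, minus), Rpl7a (chr2:26910792-26910821, plus), Rps18 (chr17:33955651-33955680, minus), Rpl15 (chr14:18270972-18271001, minus) and the paralog Rpl22l1 (chr3:28805493-28805522, plus) are shown because their levels are described below; Rps27 (chr3:90213634-90213663, minus) and its intronless copy Rps27rt (chr9:114982725-114982754, minus) show a gene and a copy whose longest run is 6 bases.
Rplp2: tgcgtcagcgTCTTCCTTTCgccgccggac
Rps6: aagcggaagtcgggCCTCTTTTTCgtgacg
Rpl7a: aTTCCCTCTTCTTTCTTTCTCCagcagccg
Rps18: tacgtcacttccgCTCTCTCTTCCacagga
Rpl15: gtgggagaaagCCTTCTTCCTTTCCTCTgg
Rpl22l1: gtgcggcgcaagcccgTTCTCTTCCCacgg
Rps27: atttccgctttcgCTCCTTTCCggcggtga
Rps27rt: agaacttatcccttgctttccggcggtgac

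Such a run was found in 33 of the 63 members (52.4%), against 21.3% of 27025 genes with a RefSeq start. Counted over start sites, 45.9% of member starts held a run on the sense strand and 6.76% on the other strand. Of all starts, 18.6% and 20.3% did. A match is a stretch of letters in this window and not a mapped TOP motif, because annotated starts can lie several bases from the used start.

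Per unit of length, the members were expressed at similar levels. Mean TPM (a relative level corrected for transcript length) over the 32 libraries had a median of 344 for the 77 standard genes, and 66 of them lay within 2-fold of that median. The large-subunit genes had a median of 309 TPM and the small-subunit genes 375 TPM. The highest levels were those of Rplp1, a P stalk protein that contacts elongation factors (958 TPM), Rps2, a small-subunit protein near the mRNA entry channel (909 TPM), and Rps27rt (887 TPM). At the other end were Rps27 (7.22 TPM), Rpl12, which anchors the stalk base (8.03 TPM), Rps19bp1 (15 TPM), Rpl5, which carries the small ribosomal RNA of the large subunit (21.7 TPM), and the paralog Rpl7l1 (32.3 TPM). Protein-coding transcripts took 92.8% to 93.3% of the members' reads in the group means.

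Several of the low values belong to genes that share sequence with a more abundant copy, and for these the split of reads between the copies is uncertain. In 9 of 85 members the gene that shared most 31-base stretches had a higher mean TPM than the member itself. Rps27 shared 27.4% of its stretches with Rps27rt, and 97.3% to 99.4% of their summed CPM (reads relative to library size) was assigned to Rps27rt in every library. The most shared gene of Rpl5 was the processed pseudogene Gm15500 at 324 TPM, and that of Rpl12 was the processed pseudogene Gm10275 at 322 TPM, both close to the median of the standard ribosomal genes. The others were Rpl27a, Rps23, Rpl11 and Rpl35, beside Rpl10 and Rpl9-ps6, whose copies Rpl10-ps3 (700.5 TPM) and Rpl9 (263 TPM) are members themselves. How reads were divided within such pairs was not tested.

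The members' summed share of TPM fell on the WD in WT males. In WTM-CD livers the 85 genes held 3.02%, 3.16%, 3.30% and 3.59% of all TPM in mice 1 to 4, and in WTM-WD livers 2.39%, 2.77%, 2.20% and 2.62%. Every WTM-WD value lay under every WTM-CD value (3.27% ± 0.242 against 2.50% ± 0.25, SD, n = 4 each). In KO males the share was 2.92%, 3.66%, 2.91% and 2.98% on the CD and 3.10%, 1.87%, 2.71% and 2.81% on the WD, and the groups overlapped (3.12% ± 0.363 against 2.62% ± 0.528). Females held 3.31% ± 0.368 (WTF-CD), 3.21% ± 0.191 (WTF-WD), 3.40% ± 0.342 (KOF-CD) and 3.47% ± 0.447 (KOF-WD). Single livers stood out: KOM-WD mouse 2 had the lowest share of all (1.87%) and KOF-WD mouse 2 the highest (4.10%). Over the 32 livers the share also varied with each library's trend of level with transcript length, described below (Pearson 0.683).

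**Figure D1:**
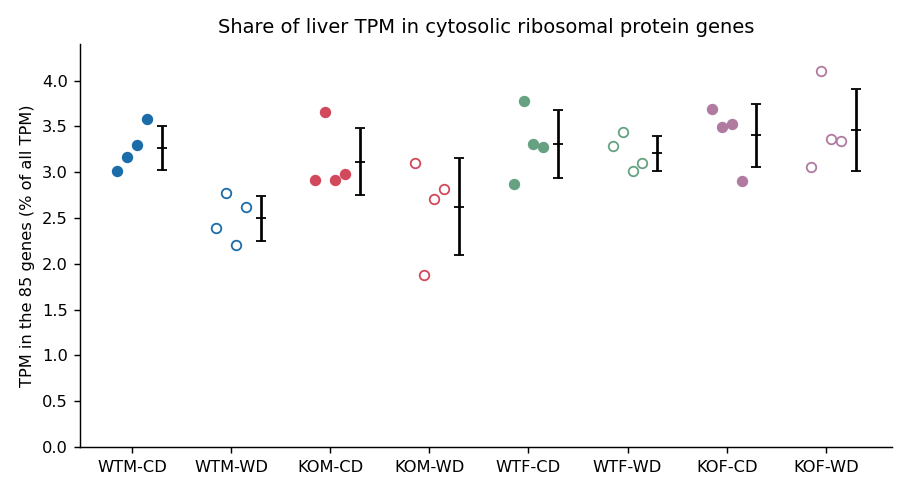
Share of all TPM held by the 85 cytosolic ribosomal protein genes (y axis, %) in each of 32 livers by group (x axis), with CD as filled and WD as open points and the mean ± SD of 4 mice as bars. WTM-WD livers (2.20% to 2.77%) lie wholly under WTM-CD livers (3.02% to 3.59%), while the other CD and WD groups overlap.

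Compared to WTM-CD, 33 of the 85 genes were lower and none higher in WTM-WD livers at an edgeR quasi-likelihood adjusted p (Benjamini-Hochberg over all genes) under 0.05. Of all 12466 genes tested, 6.28% were lower and 5.13% higher by the same rule. The median log2 fold change of the members was -0.42, against -0.01 for all genes, and 81 of the 85 were below 0. The CPM of the groups did not overlap for 43 members that were lower and 1 that was higher, against 10.4% and 9.27% of all genes. Both subunits took part: 18 of 46 large-subunit genes (median -0.42) and 14 of 31 small-subunit genes (median -0.40) fell. The largest falls among the genes that passed were those of Rpl10a (-0.80), Rpl36 (-0.78) and Rpl41 (-0.77), although Rpl36 shared 94.1% of its stretches with other genes.

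The smallest p values belonged to Rplp1, Rps2, Rpl13 and Rpl15. Rplp1 (chr9:61913284-61914542, minus strand, GRCm38) was at 199, 188, 259.5 and 281 CPM in WTM-CD mice 1 to 4 and at 149.9, 162, 126 and 139.8 CPM in WTM-WD mice. All WD livers were under all CD livers, a log2 fold change of -0.68 ± 0.171 (SE, edgeR adjusted p = 0.0115). Rps2 (chr17:24718116-24721929, plus strand) was at 584, 532, 684 and 712 CPM on the CD and at 469, 455, 402 and 422.5 CPM on the WD (-0.52 ± 0.136, edgeR adjusted p = 0.0146). Again no WD liver reached a CD liver. Rpl13, a large-subunit protein, was at 169.8, 168, 209.7 and 237 CPM against 134, 148, 114 and 127 CPM (-0.59 ± 0.153, edgeR adjusted p = 0.0149). Rpl15, also of the large subunit, was at 171, 155, 221 and 209 CPM against 135, 147, 119 and 129.5 CPM (-0.51 ± 0.134, edgeR adjusted p = 0.0152). In all 4 genes CD mice 3 and 4 were the highest of the 8 livers.

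**Figure D2:**
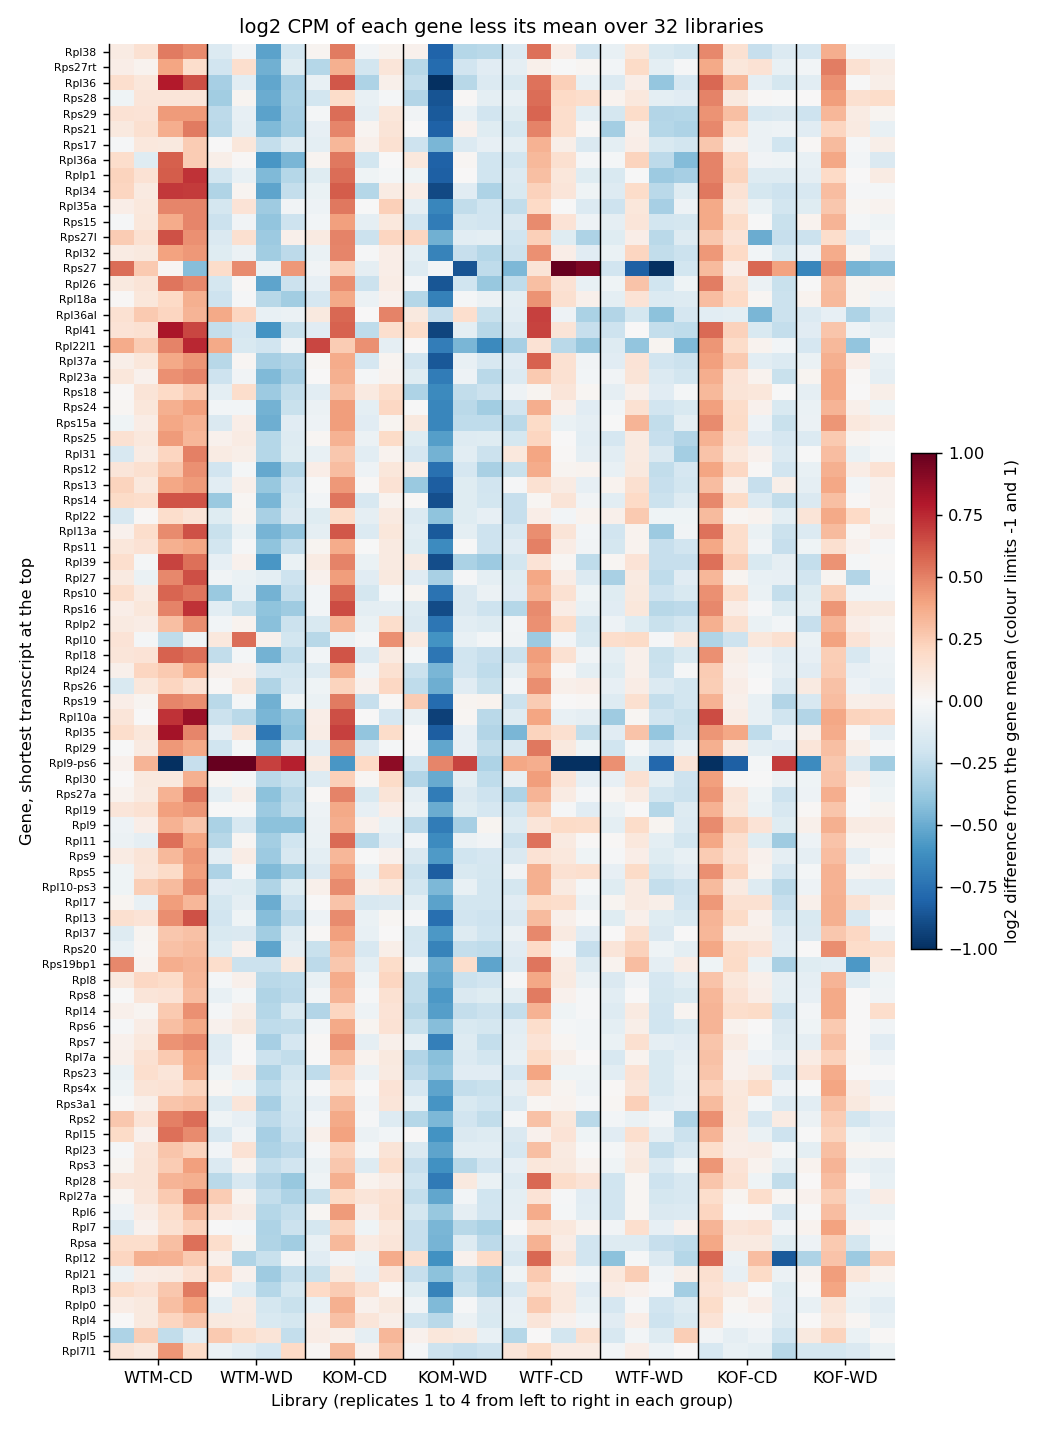
Heat map of the 85 genes (rows, shortest transcript at the top) in the 32 livers (columns, by group), coloured by log2 CPM less the gene's own mean over all livers. Most rows move together within a liver, and KOM-WD mouse 2 is low in nearly all rows. High livers are WTM-CD mice 3 and 4, KOM-CD mouse 2, WTF-CD mouse 2, KOF-CD mouse 1 and KOF-WD mouse 2.

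Other members with special roles, beside Rplp1, gave these values. Rpsa, the small-subunit protein also known as the laminin receptor, was at 339.6, 340.1, 371 and 442 CPM in WTM-CD and at 340.2, 307, 244 and 237 CPM in WTM-WD livers (-0.40 ± 0.134, edgeR adjusted p = 0.0475). WD mouse 1 overlapped the CD mice, and the call was lost in 19 of 32 fits that left out 1 library and in 4 of 9 other settings. Rplp0, the base of the P stalk, was at -0.32 (edgeR adjusted p = 0.0536), and Rplp2, which pairs with Rplp1, at -0.38 (adjusted p = 0.0862). Rps6, the substrate of the S6 kinases downstream of mTOR, was at -0.28 (adjusted p = 0.119), and Rpl11, a partner of Rpl5 in holding Mdm2, at -0.42 (adjusted p = 0.133). Among the paralogs, Rpl22l1 was at -0.47 (adjusted p = 0.0807), Rps27l, a p53-induced relative of Rps27, at -0.45 (adjusted p = 0.0726), and Rpl7l1, which acts in assembly of the large subunit, at -0.25 (adjusted p = 0.0577).

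The 4 members above 0 were all among the 9 with a more abundant copy, which was seen only after the values were known. Rpl9-ps6 was at 28.1, 34.5, 11.2 and 23.2 CPM in WTM-CD and at 68.0, 61.1, 43.8 and 46.7 CPM in WTM-WD livers (1.17 ± 0.426, edgeR adjusted p = 0.0719). Its parent Rpl9 was lower, from 129.7, 141, 171 and 163 CPM to 108, 120.2, 102 and 102 CPM (-0.49 ± 0.134, edgeR adjusted p = 0.0198). Summed, the pair was at 175 ± 12.6 CPM on the CD and 163 ± 18.6 CPM on the WD (SD, n = 4), and the share of the sum given to Rpl9-ps6 was 14.0% (6.14% to 19.7%) and 33.5% (30.1% to 38.6%). Rpl10 was at 0.20, Rpl5 at 0.18 and Rps27 at 0.12, none of them passing. Their copies were on the other side of 0: Rpl10-ps3 at -0.42 (edgeR adjusted p = 0.0448), Gm15500 at -0.13 (adjusted p = 0.452) and Rps27rt at -0.31 (adjusted p = 0.157).

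The fall in WT males ran together with transcript length. The members' transcripts had a median length of 681 bases (369 to 2212), against 2488 bases for all genes tested. Of 1978 other genes with transcripts of 391 to 1329 bases, the span that holds all but the shortest and longest members, 14.7% were lower in WTM-WD, with a median of -0.21. Across all other genes the median log2 fold change ran from -0.40 at 400 to 600 bases to 0.15 at 6000 to 10000 bases. For the 28 other genes with 200 to 400 bases it was -0.21. With each library's length trend removed (fitted on genes that are no members), 6 members were lower and 1 higher, with a median of -0.08, against 4.59% and 4.99% of all genes. Rps2 (-0.31, edgeR adjusted p = 0.0296), Rpl15 (-0.30, adjusted p = 0.0400) and Rpl13 (-0.30, adjusted p = 0.0455) still passed, and Rplp1 was at -0.26 (adjusted p = 0.0631). The copy Rpl9-ps6 was the member that was higher (1.43, adjusted p = 0.0480). The origin of the trend was not tested.

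Within the members, 11 of the 29 shortest, 15 of the 28 of middle length and 7 of the 28 longest were lower in WTM-WD. At matched length, 15 of 25 members with 400 to 600 bases were under the median of other genes of that length (members -0.45, others -0.40), as were 21 of 26 with 600 to 800 bases and 12 of 13 with 800 to 1000 bases. So were 6 of 6 with 200 to 400 bases (members -0.55, others -0.21) and 11 of 12 with 1000 to 1500 bases. Of the 33 genes with a pyrimidine run at the start 13 fell (median -0.43), and of the 30 without it 9 fell (median -0.34). The count in WT males also rested on single livers: no member passed without WTM-CD mouse 4, 2 passed without WTM-CD mouse 3 or without WTM-WD mouse 3, and 12 without WTM-WD mouse 4. With no filter on low counts 16 passed, and with offsets from effective transcript lengths 18.

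**Figure D3:**
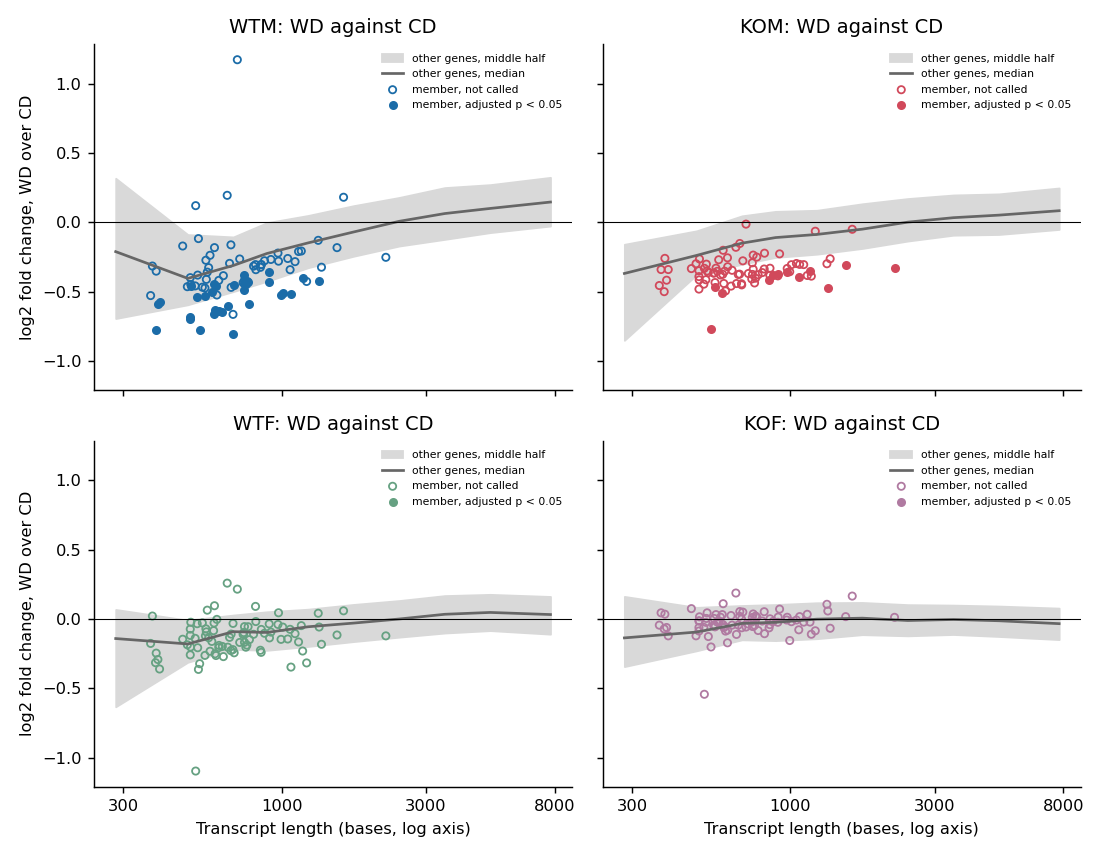
log2 fold change of WD over CD (y axis) against transcript length in bases (x axis, log scale) for the 85 genes (points) in WTM, KOM, WTF and KOF, with the median and the quartile band of all other tested genes. In WTM the median of the band falls from 0.15 at 6000 to 10000 bases to -0.40 at 400 to 600 bases, and is -0.21 at 200 to 400 bases (28 genes). In KOM most points lie under the band's median.

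In KO males, 12 members were lower and none higher in KOM-WD than in KOM-CD livers, against 2.65% of all genes lower. All 85 were below 0 (median -0.35), and 30 had groups that did not overlap, against 5.53% of all genes. The large and small subunits each gave 5 of the calls. Rpl22l1, a paralog of Rpl22, was at 44.8, 33.7, 38.9 and 26.6 CPM on the CD and at 28.3, 17.6, 20.6 and 18.2 CPM on the WD (-0.77 ± 0.178, edgeR adjusted p = 0.00881). KOM-WD mouse 1 lay above KOM-CD mouse 4, so these groups overlapped. Rps18, in the head of the small subunit, was at 161, 214, 185 and 197 CPM against 140.3, 112, 147 and 149.8 CPM (-0.46 ± 0.115, edgeR adjusted p = 0.0142), without overlap.

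Rpl3, which lies close to the peptidyl transferase centre, was at 264, 274, 256 and 231 CPM in KOM-CD and at 211, 144, 198 and 184 CPM in KOM-WD livers (-0.48 ± 0.122, edgeR adjusted p = 0.0176). Rpl7l1 was at 54.6, 66.9, 55.5 and 65.2 CPM against 53.3, 46.7, 45.9 and 46.6 CPM (-0.33 ± 0.0874, edgeR adjusted p = 0.0218). Both genes were lower in every WD liver than in any CD liver, and mouse 2 was the lowest WD liver for Rpl3. The other 8 were Rpl4 (-0.31), Rpl7 (-0.35), Rpl7a (-0.37), Rpl8 (-0.42), Rps3 (-0.39), Rps4x (-0.36), Rps6 (-0.38, edgeR adjusted p = 0.0493) and Rps13 (-0.51). The call of Rps6 was lost in 24 of 32 fits that left out 1 library and in 4 of 9 other settings. Rplp0 (-0.26, edgeR adjusted p = 0.167), Rplp1 (-0.35, adjusted p = 0.247) and Rps2 (-0.35, adjusted p = 0.122) did not pass.

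The length trend was smaller in KO males. Other genes of the members' length span were lower in 4.45%, with a median of -0.11. With the length trend removed 13 members were lower, of which 11 were among the 12, with a median of -0.21, against 3.06% of all genes. Rpl3 (-0.41, edgeR adjusted p = 0.00987), Rpl22l1 (-0.60, adjusted p = 0.0130) and Rpl7l1 (-0.33, adjusted p = 0.0134) passed, and Rps18 did not (-0.28, adjusted p = 0.122). Of 25 members with 400 to 600 bases 24 lay under the median of other genes of that length, as did 25 of 26 with 600 to 800 bases and 13 of 13 with 800 to 1000 bases. With 1000 to 1500 bases 11 of 12 did, and with 200 to 400 bases only 3 of 6 (members -0.38, others -0.37). By length the calls fell on 3 of the 29 shortest, 0 of the middle 28 and 9 of the 28 longest members. The pseudogene copies gave -0.37 for Gm15500 (edgeR adjusted p = 0.0301) and -0.43 for Gm10275 (adjusted p = 0.222), where Rpl5 was at -0.05 and Rpl12 at -0.06.

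The number of calls in KO males again hung on single livers. Without KOM-CD mouse 2 there was 1 call, without KOM-WD mouse 2 there were 2, without KOM-CD mouse 4 or KOM-WD mouse 4 there were 4, and without KOM-WD mouse 3 there were 6. A fit of these 2 groups alone called none, a run with no filter 5, and DESeq2 20. Of the genes called in WT males (33) and in KO males (12), 3 were shared, Rpl3, Rpl7a and Rps13, which is 9.09% of the first list and 25% of the second. Rpl7a, a large-subunit protein, was at 256 to 325 CPM in WTM-CD and 208 to 248 CPM in WTM-WD, and at 246 to 309 CPM in KOM-CD and 185 to 225 CPM in KOM-WD livers. A test of the difference between the diet effects of KO and WT males called no member (edgeR, 0.0642% of all genes called, DESeq2 0), and 0 members had an unadjusted p under 0.05, against 12.4% of all genes. The median difference was 0.03, with 36 of 85 below 0. With the length trend removed it was -0.13, with 66 below 0 and still no call. Then 11 members had an unadjusted p under 0.05, against 12.4% of all genes with the trend kept.

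**Figure D4:**
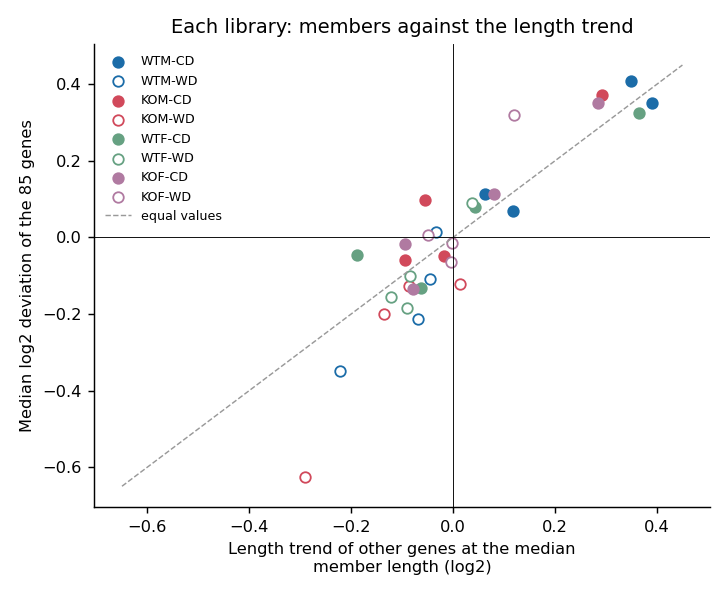
Median log2 CPM deviation of the 85 genes from their own means (y axis) against each library's length trend at the median member length (x axis, log2 CPM, fitted on other genes), 1 point for each of 32 livers, with a dashed line where both are equal. Livers lie along the line, and KOM-WD mouse 2, at a trend of -0.29 and a deviation of -0.63, lies farthest below it.

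Liver by liver, the members varied with other short genes. The trend at the median member length had group means of 0.23 log2 CPM in WTM-CD and -0.09 in WTM-WD, 0.03 in KOM-CD and -0.12 in KOM-WD, and between -0.06 and 0.05 in the female groups. Its Pearson correlation with the median member deviation was 0.905 (Spearman 0.845) over the 32 livers, which share 1 normalisation and 1 set of gene means, and is a description. With the members' share of TPM the trend correlated at 0.683 (Spearman 0.655). Less the trend, the members' deviation averaged 0.01 in WTM-CD, -0.08 in WTM-WD, 0.06 in KOM-CD and -0.15 in KOM-WD livers.

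In females no member passed the threshold for diet. By edgeR none was called between WTF-WD and WTF-CD (0.313% of all genes called, DESeq2 0, median log2 fold change -0.13), although 76 of 85 were below 0 (51.2% of all genes). At an unadjusted p under 0.05 there were 4 members, against 11.6% of all genes. With the length trend removed the median in WT females was -0.02, and 53 of 85 members were below 0. Between KOF-WD and KOF-CD the count was also 0 (edgeR, 0.12% of all genes, DESeq2 0, median -0.02), with 52 of 85 below 0 (52.4% of all genes) and 0 members at an unadjusted p under 0.05, against 8.74% of all genes. Rps27, whose reads are shared with Rps27rt, was at 1.03, 1.53, 3.02 and 2.70 CPM in WTF-CD and at 1.23, 0.797, 0.636 and 1.23 CPM in WTF-WD livers, with overlap (-1.10 ± 0.299, edgeR adjusted p = 0.122). It was the 1 member called without WTF-CD mouse 1 (adjusted p = 0.0397). Rplp1 was at 156, 210.5, 185 and 157 CPM in WTF-CD and at 153, 169.9, 133 and 136 CPM in WTF-WD livers, with overlap, and Rps18 at 167 to 189 CPM and 161 to 179.7 CPM. The difference between the diet effects of females and males also called no member by edgeR (0.241% of all genes), with a median difference of 0.29 and 51 members at an unadjusted p under 0.05, against 11.9% of all genes. DESeq2 called 1. The smallest p of this difference was that of Rpl3 (0.45, edgeR adjusted p = 0.128). Other genes of the members' length span had a median difference of 0.12. With the length trend removed the members' median difference was 0.15. Then 27 members had an unadjusted p under 0.05, against 11.9% of all genes with the trend kept. A diet effect that differs by sex was therefore not shown for any single member by edgeR.

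On the WD, KO females had more of these transcripts than KO males. Compared to KOM-WD, 14 members were higher and none lower in KOF-WD livers, against 5.54% of all genes higher. The median log2 difference was 0.32 (other genes of the same length span 0.11), and 35 members had groups that did not overlap in this direction, against 8.54% of all genes. This comparison shares the KOM-WD mice with the diet comparison in KO males. Rpl7, a large-subunit protein, was at 199.5, 171, 193 and 188 CPM in KOM-WD and at 239.7, 309.9, 241 and 233 CPM in KOF-WD livers (0.44 ± 0.108, edgeR adjusted p = 0.00627). Rpl21, also of the large subunit, was at 149, 131, 146 and 138 CPM against 179, 233, 189 and 179 CPM (0.47 ± 0.114, edgeR adjusted p = 0.00627). Every female liver was above every male liver in both genes, with mouse 2 highest among females and lowest among males.

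Rps4x, the X-linked small-subunit protein, was at 193, 150.2, 184 and 185 CPM in KOM-WD and at 216, 284, 228 and 209 CPM in KOF-WD livers (0.40 ± 0.103, edgeR adjusted p = 0.0103). Rps18 was at 140.3, 112, 147 and 149.8 CPM against 164, 227, 174 and 181 CPM (0.44 ± 0.115, edgeR adjusted p = 0.0108). Neither pair of groups overlapped. The other 10 were Rpl3, Rpl7a, Rpl9, Rpl14, Rpl22, Rps3, Rps13, Rps20, Rps27rt and Rps28. With the length trend removed 13 were higher, 8 of them among the 14 (median 0.19, 5.15% of all genes). Both second mice set the count: without KOF-WD mouse 2 no member was called, and without KOM-WD mouse 2 there were 2. A fit of the 2 groups alone called 4. Cell-type markers also differed: the 12 hepatocyte markers summed to 72500 to 101000 CPM in KOM-WD and 92200 to 113200 CPM in KOF-WD livers (2 higher, 1 lower), and 2 of 12 macrophage markers were higher. Their part in these calls was not tested.

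On the CD the sexes differed in single paralogs past the threshold. Between WTF-CD and WTM-CD livers 81 of 85 members were below 0 (49.8% of all genes), with a median of -0.18 (other genes of the length span -0.10), and 14 had an unadjusted p under 0.05, against 17.8% of all genes. With the length trend removed 43 were below 0 and the median was -0.01. Rpl22l1 was lower in WTF-CD (22.4, 31.3, 23.5 and 21.8 CPM) than in WTM-CD livers (36.6, 33.7, 40.0 and 47.6 CPM), without overlap (-0.67 ± 0.177, edgeR adjusted p = 0.0231), the only member called, against 4.61% of all genes in either direction. It was not called without WTF-CD mouse 1, 3 or 4, without WTM-CD mouse 3 or 4, or without the 4 libraries with acinar transcripts, and without WTF-CD mouse 2 there were 2 calls. With the length trend removed, Rps28 was called higher (2.66% of all genes) and Rpl22l1 was not called. In KOF-CD against KOM-CD livers 2 members were lower (11.7% of all genes called): Rpl7l1 at 48.1, 51.0, 50.2 and 44.3 CPM against 54.6, 66.9, 55.5 and 65.2 CPM (-0.32 ± 0.0873, edgeR adjusted p = 0.0135), and Rpl36al, a paralog of Rpl36a, at 103, 103, 80.6 and 95.3 CPM against 119, 164, 111 and 156 CPM (-0.53 ± 0.156, edgeR adjusted p = 0.0243). Without KOM-CD mouse 2 or 4 neither was called, and without KOF-CD mouse 3 there was 1 call. Between WTF-WD and WTM-WD no member was called (edgeR, 10.9% of all genes, DESeq2 0) and 4 had an unadjusted p under 0.05, against 25.3% of all genes, and 1 was called without the libraries with acinar transcripts or without WTF-CD mouse 2 alone.

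Loss of Nudt7 changed none of these genes past the threshold. By edgeR no member was called in males on the CD (0.016% of all genes, median of the members -0.13) or the WD (0.281%, median -0.10), nor in females on the CD (0.0882%, median 0.02) or the WD (0% of all genes, median 0.15). At an unadjusted p under 0.05 there was 1 member in males on the CD, against 9.27% of all genes, 2 on the WD (11.1%), and in females 2 on the CD (11.6%) and 0 on the WD (5.2%). DESeq2 called none in any of the 4. Averaged over sex and diet the count was again 0 (edgeR, 0.0642% of all genes, DESeq2 0, median -0.01), with 2 members at an unadjusted p under 0.05, against 9.32% of all genes. In males 78 of 85 members were below 0 on the CD and 72 on the WD (50.9% and 51.6% of all genes). In females these were 33 and 3 (47.2% and 48.6%). Other genes of the length span had medians of -0.12 and -0.03 in males and 0.002 and 0.06 in females. With the length trend removed the members' medians were 0.06 and -0.07 in males and 0.02 and 0.07 in females.

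Averaged over genotype and sex, 64 of 85 members were lower on the WD, against 11.5% of all genes and 21.7% of other genes in the length span. The average joins diet medians of -0.42 (WTM), -0.35 (KOM), -0.13 (WTF) and -0.02 (KOF), with no call in either female comparison. Its own median was -0.22, and the smallest p values were those of Rps2 (-0.29, edgeR adjusted p = 0.00257), Rpl8, a core protein of the large subunit (-0.26, adjusted p = 0.00266), Rps21 (-0.35, adjusted p = 0.00282) and Rpsa (-0.28, adjusted p = 0.00313). With the length trend removed 19 were lower and 1, Rpl22, was higher (median -0.08, against 10.5% and 9.63% of all genes), and without the 4 libraries with acinar transcripts 37 were called. Averaged over genotype and diet, females were higher in Rps28 (0.26, edgeR adjusted p = 0.00668), Rpl7 (0.18, adjusted p = 0.0122), Rpl21 (0.17, adjusted p = 0.0194), Rpl9 (0.20, adjusted p = 0.0209) and Rps20 (0.18, adjusted p = 0.0498), and lower in Rpl36al (-0.30, adjusted p = 0.00391), against 16.7% and 15.9% of all genes. Rps20 passed in 10 of 32 fits that left out 1 library, and the other 5 genes in all 32. These calls became 17 higher and 3 lower with the length trend removed (17.1% and 18.8% of all genes), and 10 members were called without KOF-CD mouse 4 or without KOM-CD mouse 2.

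**Figure D5:**
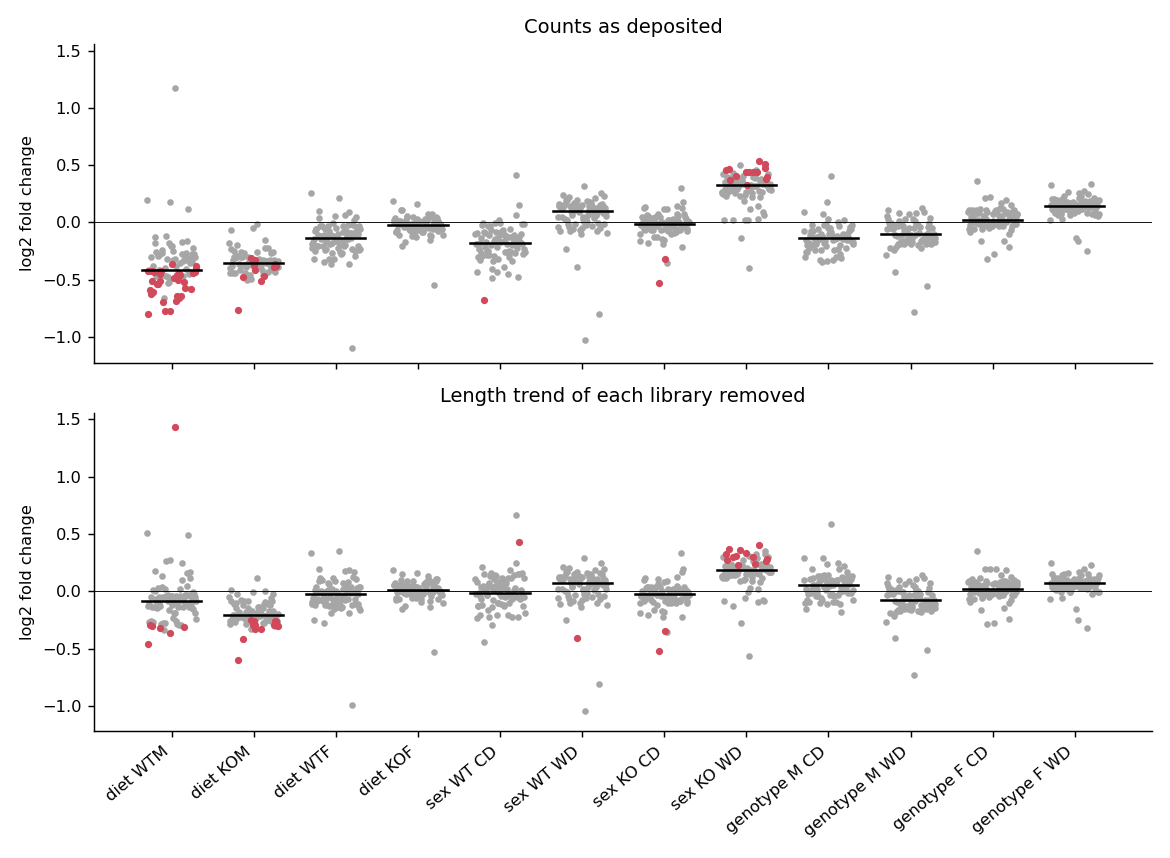
log2 fold changes of the 85 genes (y axis) in 12 single comparisons of diet, genotype and sex (x axis), from counts as deposited (top) and with each library's length trend removed (bottom), with genes at an adjusted p under 0.05 in red and the median as a bar. In WTM the median moves from -0.42 to -0.08 when the trend is removed, in KOM from -0.35 to -0.21, and between the KO sexes on the WD from 0.32 to 0.19.

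Rpl22 is given in full because it was a reference gene, with B2m, in the RT-qPCR assays of the study. It ran from 73.6 to 126 CPM over the 32 livers, with group means of 100.5 ± 10.1 (WTM-CD), 88.6 ± 8.70 (WTM-WD), 98.8 ± 10.2 (KOM-CD), 86.0 ± 8.37 (KOM-WD), 95.1 ± 8.48 (WTF-CD), 102 ± 10.4 (WTF-WD), 103 ± 13.1 (KOF-CD) and 111 ± 11.6 (KOF-WD) CPM. Diet did not change it past the threshold in males (WTM -0.18, edgeR adjusted p = 0.279; KOM -0.20, adjusted p = 0.298). It was higher in KOF-WD (107, 126, 112 and 99.0 CPM) than in KOM-WD livers (88.7, 73.6, 89.7 and 92.0 CPM), without overlap (0.37 ± 0.107, edgeR adjusted p = 0.0233). Rpl22, like every other member, was not called in this comparison without KOF-WD mouse 2. Its paralog Rpl22l1 had among the widest spans of group means (0.91 on the log2 scale), after Rpl9-ps6 (1.43) and Rps27 (1.02), while Rpl5 (0.20), Rpl10 (0.28) and Rpl4 (0.32) had the narrowest.

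Other genes of the translation machinery were set beside the members. Fau and Rack1, which also encode ribosomal proteins, were lower in WTM-WD, Fau at -0.69 on the log2 scale (edgeR adjusted p = 0.00992) and Rack1 at -0.51 (adjusted p = 0.0178). Neither was called in KO males, where Fau was at -0.42 (adjusted p = 0.137) and Rack1 at -0.38 (adjusted p = 0.102). Of 20 elongation factors and other TOP mRNAs, in WT males 1 was lower (Eif3h, -0.25) and 1 higher (Npm1, a nucleolar chaperone, 0.29), and none was called in KO males. Of 22 initiation factors 1 was higher in WT males (Eif5, 0.41) and none was called in KO males. Of 44 ribosome biogenesis genes 3 were lower, among them Snu13 (-0.29) and Nop10 (-0.55), and 1 higher in WT males, with none in KO males. Of all genes, 6.28% were lower and 5.13% higher in WT males, and 2.65% were lower in KO males. The median transcript length of these 3 lists lay between 1785 and 2081 bases, longer than that of the members.

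Among 20 mTOR and Myc pathway genes, Ddit4, a stress-induced inhibitor of mTOR, fell in WT males (-1.67, edgeR adjusted p = 0.00682). Larp4, which binds poly(A) tails, rose there (0.58, adjusted p = 0.0172). By the same rule 6.28% of all genes were lower and 5.13% higher in WT males, and 2.65% were lower in KO males. The genes named from this list do not give the number called among the 20. Larp1, which binds TOP mRNAs, was lower in KOM-WD than in KOM-CD (-0.29, adjusted p = 0.0447) and higher in KOF-WD than in KOM-WD livers (0.29, adjusted p = 0.0252), and these comparisons share the KOM-WD mice. Between the KO sexes on the WD, 5 of the 20 elongation and TOP genes were higher, with Npm1 at 0.39 (adjusted p = 0.00627) and Eef1d at 0.40 (adjusted p = 0.0115), and 1 initiation factor was higher (the X-linked Eif2s3x, 0.56) and 2 lower (among them Eif4g1, -0.45). Of all 12466 genes, 5.54% were higher and 721 genes were lower in this comparison.

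Mitochondrial ribosomal proteins and oxidative phosphorylation subunits, whose transcripts are also short (median 1027 and 710 bases), fell in part as well in WT males. There 16 of 78 mitochondrial ribosomal genes and 56 of 78 oxidative phosphorylation genes were lower on the WD (medians -0.23 and -0.49), against 6.28% of all genes. With the length trend removed 6 and 26 were lower, against 4.59% of all genes. In KO males the counts were 1 and 9, against 2.65% of all genes, and 0 and 9 with the trend removed, against 3.06%. Marker lists of cell types also moved with the diet, and the hepatocyte list did so in both sexes. The summed CPM of 12 hepatocyte markers had a median of 114400 in WTM-CD and 95600 in WTM-WD, and of 119400 in KOM-CD and 77550 in KOM-WD livers, with 0 of 12 lower in WT and 3 of 12 lower in KO males. In females the median was 119400 in WTF-CD and 99060 in WTF-WD livers, without overlap. It was 121100 in KOF-CD and 104500 in KOF-WD livers, with overlap. The adipocyte list of 8 genes summed to 1318 to 1984 CPM in WTM-CD and 2223 to 3399 CPM in WTM-WD (2 of 3 tested markers higher, Cfd and Car3). It summed to 1268 to 2708 CPM in KOM-CD and 1056 to 2555 CPM in KOM-WD livers, where Retn was at 0 on both diets. Adipoq was also at 0 in KOM-CD and Lep in KOM-WD livers. Whether these sums come from adipocytes was not tested. None of 12 macrophage markers was called in either male comparison. Their part in the fall of the ribosomal protein genes was not tested.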

How the data were processed

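Per the labels and the methods of the study, poly(A) liver libraries (KAPA mRNA HyperPrep, 50-base paired reads, HiSeq) were quantified by the authors with Salmon 1.3.0 on a decoy-aware index of the mouse Ensembl transcriptome (GRCm38), and the deposited tables give each transcript an estimated count and a TPM value. The submitters' notes also list DESeq2 1.28.1, which made no file used here. Expected counts were summed by gene with GENCODE vM21 and rounded to whole numbers; 0.32% to 0.42% of reads were on transcripts outside that annotation and were left out. TPM from the deposited tables was summed by gene for levels.

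Genes with at least 10 reads in at least 16 of the 32 libraries (12466 genes) entered edgeR 4.0.16's quasi-likelihood test (TMM, R 4.3.3) in 1 model of 8 group means, with p-values adjusted by Benjamini and Hochberg over all genes and a threshold of 0.05. Depth was 10140048 to 15825078 reads (median 13000302), and low genes such as Rps27 are the least precise. CPM values use TMM library sizes. Alternatives were DESeq2 1.42.0, other scaling, filters and length corrections, pairwise fits, a replicate block, pseudogene reads added, and leaving out libraries. Each library's length trend was a lowess curve (span 0.3) of its log2 CPM deviations against the log of transcript length. The pipeline was tested on simulated data.

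Replicates were separate mice. Replicate numbers were checked for pairing by the correlation of deviations from group means, which showed none on average. The genes, lists and tests were chosen with earlier results of these data known. Named were Rpl22 and Rpl22l1, up to 4 called members a direction with the smallest p in each comparison, the 3 highest and lowest by TPM, the 3 with the widest and narrowest span of group means, listed paralogs, stalk, Rpsa, Rps6, Rpl5 and Rpl11, Fau and Rack1, and up to 2 called genes per other list; the largest falls, remaining calls and copies were named after their values were seen. Shared sequence was the share of a gene's 31-base stretches found in other genes' GENCODE transcripts. A result of 1 list is not reported here.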

Additional observations from a re-analysis of the deposited data

Results flagged for a closer look

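Single livers lay far from the other 3 of their group (a gap over range above Dixon's 95% critical value) in 18 of 272 tests of 34 items in 8 groups, or 6.62%, where chance gives about 1 in 20. KOF-WD mouse 2 gave 7 of these, all high: Rpl3 at 301.6 CPM (the others 222.3 to 228.9), Rpl7 at 309.9 CPM (233.3 to 241.0), Rpl8 at 237.8 CPM (172.0 to 182.7), Rpl9 at 171.8 CPM (139.7 to 142.8), Rplp0 at 285.2 CPM (242.2 to 249.2), Rps6 at 304.6 CPM (247.0 to 254.3) and Rps27 at 1.933 CPM (0.8936 to 1.039).

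KOM-CD mouse 2 was high in the members' share of TPM at 3.659% (2.912% to 2.98%), in Rpl13 at 211.0 CPM (145.6 to 153.9) and in Rplp1 at 250.6 CPM (156.8 to 168.0). KOM-WD mouse 2 was low in the median log2 deviation of the members at -0.6268 (-0.1996 to -0.1218), in Rpl11 at 49.53 CPM (73.37 to 75.23) and in Rplp2 at 44.01 CPM (65.68 to 67.73). Rpl12 was high in KOM-CD mouse 4 at 7.66 CPM (5.481 to 5.799), and Rpl7l1 in KOM-WD mouse 1 at 53.33 CPM (45.92 to 46.69). WTF-WD mouse 2 was high in Rpl13 at 157.3 CPM (137.2 to 140.3) and in Rps21 at 66.93 CPM (51.04 to 53.06). Rps28 was low in WTM-CD mouse 1 at 69.66 CPM (78.11 to 78.42). The effect of leaving out each of these livers on the calls is given in the report where it passes 1.5 times.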

How the results depend on the processing

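Of 148 counts of called members under alternatives that keep all groups' mice or drop the acinar libraries, 130 stayed within 1.5 times, 11 were lower, 6 higher and 1 changed direction. For the diet in WT males (33 calls) the count was 16 with no filter, 18 with offsets from effective lengths and 7 with the length trend removed; in KO males (12 calls) it was 5 with no filter, 20 by DESeq2 and 0 in a separate fit. Between the sexes, the WT CD comparison (1 call) gave 1 in the other direction with the trend removed and 0 without the acinar libraries, KO CD (2 calls) gave 1 with length offsets and 1 in a separate fit, WT WD (0 calls) gave 1 with the trend removed, 1 in a separate fit and 1 without the acinar libraries, and KO WD (14 calls) gave 4 in a separate fit. The mean diet effect (64 calls) gave 20 with the trend removed and 37 without the acinar libraries, the mean sex effect (6 calls) 20 with the trend removed, and the difference of diet effects between the sexes (0 calls) 1 by DESeq2. The cause of these moves was not tested, except that a separate fit has fewer samples. Leaving out each library in turn gave 0 to 41 calls for the diet in WT males, 1 to 18 in KO males, 0 to 1 in WT females and 0 to 0 in KO females; 0 to 2 for sex in WT CD, 0 to 2 in KO CD, 0 to 1 in WT WD and 0 to 19 in KO WD; 51 to 69 for mean diet, 5 to 10 for mean sex, and 0 in every genotype comparison and both differences of diet effects. Replicate numbers showed no pairing of the mice on average. Same-number deviations correlated at a mean of 0.0202 over 112 pairs (-0.238 to 0.417), and others at -0.00631 (-0.35 to 0.323). These means do not exclude pairing of some mice. A replicate block gave 37 calls for the diet in WT males, 10 in KO males, 64 for mean diet and 14 for sex in KO WD. Of the named members' tests, no direction changed; 204 of 234 kept their side of the threshold under other settings and 781 of 864 when 1 library was left out.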
